A study of Mus musculus with 4 samples.

Results

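The actin cytoskeleton and migration genes are 47 genes for the filament itself, the Arp2/3 complex and its activators, monomer binding, capping, myosins, membrane linkers, adhesion and GTPase control. They were taken as a named list, whose symbols were matched to Ensembl mouse identifiers, and all 47 were found among the 30731 genes listed in every library's table. All 47 passed the filter on low counts that left 25283 genes for testing, and their raw counts ran from 66 to 103820 reads in a library.

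The study profiled RNA of mouse innate lymphoid cells, lymphocytes without a rearranged antigen receptor, in 3 groups. MNK-3 is a cell line with ILC3-like features, made from NIH-Swiss fetal thymocytes of day 15 and grown with IL-15 and IL-7 at 10 ng/ml each, and it had 2 libraries. Group 2 innate lymphoid cells (ILC2) came from the bone marrow of pooled wild-type C57BL/6 mice of 8 to 12 weeks, were expanded with IL-33, IL-25, IL-7 and IL-2 at 10 ng/ml each, and had 1 library. Natural killer (NK) cells came from the spleen of pooled wild-type C57BL/6 mice of the same age and had 1 library. No group carried a transgene or deletion by the labels, and MNK-3 is 1 line, so cell type, tissue, strain, culture and cytokine exposure cannot be told apart. The gene set used in counting also differed between MNK-3 and the primary cells, and cannot be told apart from these. The labels do not say that the MNK-3 libraries came from separate cultures, so p-values here measure only a spread, shared over genes, that may be technical.

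Actin monomers join into filaments that push the membrane forward, anchor adhesions and, with myosin, pull the cell body along. The Arp2/3 complex starts new branches when it is switched on by proteins of the WASP and WAVE families, which act downstream of the GTPases Cdc42 and Rac. Profilin, thymosins, cofilin and cyclase-associated protein decide how many monomers are free, and capping proteins stop filament growth. In lymphocytes this machinery drives crawling through tissue and, in NK cells, the contact with a target cell through which lytic granules are released.

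Several actin genes are textbook targets of serum response factor, which binds the CArG box, so the windows around the transcription start were searched for that motif by name on both strands. A window ran from 250 bases before to 50 bases after the start in RefSeq (GRCm38.p6), and 42 of the 47 genes had one; Actb, Rac1, Rac2, Coro1b and Arpc5l had none in the table. The motif was found for 4 of the 42 genes (9.52%), which were Actg1, Arpc4, Myl6 and Vcl, against 488 of 27025 genes (1.81%) in the whole table. The sequences of these 4 are shown because they hold the match, with the CArG box in capitals, and those of Myo1f and Capg because these genes differed most in level between cell types, with no match in the window. Myl6 had 2 windows and the one with the match is shown. They are, on the strand of the gene, Actg1 at chr11:120348446-120348745 (minus strand), Arpc4 at chr6:113377863-113378162 (plus), Myl6 at chr10:128492960-128493259 (minus), Vcl at chr14:20929148-20929447 (plus), Myo1f at chr17:33555457-33555756 (plus) and Capg at chr6:72549397-72549696 (plus).
Actg1: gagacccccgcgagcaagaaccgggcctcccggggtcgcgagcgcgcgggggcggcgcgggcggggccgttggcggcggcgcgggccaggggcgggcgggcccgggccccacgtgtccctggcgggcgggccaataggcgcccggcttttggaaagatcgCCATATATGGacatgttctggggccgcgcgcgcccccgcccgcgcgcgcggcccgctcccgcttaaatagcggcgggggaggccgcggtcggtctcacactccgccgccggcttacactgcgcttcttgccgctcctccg
Arpc4: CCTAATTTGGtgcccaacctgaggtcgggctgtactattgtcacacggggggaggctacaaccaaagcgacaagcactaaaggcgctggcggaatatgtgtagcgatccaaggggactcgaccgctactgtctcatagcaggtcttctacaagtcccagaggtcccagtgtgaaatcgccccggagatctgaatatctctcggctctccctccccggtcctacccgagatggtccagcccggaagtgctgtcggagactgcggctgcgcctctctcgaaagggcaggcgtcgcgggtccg
Myl6: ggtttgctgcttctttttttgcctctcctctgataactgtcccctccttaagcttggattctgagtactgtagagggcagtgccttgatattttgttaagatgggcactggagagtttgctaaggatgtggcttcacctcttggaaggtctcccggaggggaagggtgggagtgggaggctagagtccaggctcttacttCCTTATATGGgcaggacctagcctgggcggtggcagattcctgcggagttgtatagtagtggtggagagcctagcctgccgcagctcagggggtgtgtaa
Vcl: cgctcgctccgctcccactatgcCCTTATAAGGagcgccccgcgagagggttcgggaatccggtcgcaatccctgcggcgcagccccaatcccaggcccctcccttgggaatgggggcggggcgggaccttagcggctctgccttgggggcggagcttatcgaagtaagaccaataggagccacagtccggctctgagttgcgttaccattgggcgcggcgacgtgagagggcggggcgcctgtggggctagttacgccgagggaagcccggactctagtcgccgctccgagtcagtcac
Myo1f: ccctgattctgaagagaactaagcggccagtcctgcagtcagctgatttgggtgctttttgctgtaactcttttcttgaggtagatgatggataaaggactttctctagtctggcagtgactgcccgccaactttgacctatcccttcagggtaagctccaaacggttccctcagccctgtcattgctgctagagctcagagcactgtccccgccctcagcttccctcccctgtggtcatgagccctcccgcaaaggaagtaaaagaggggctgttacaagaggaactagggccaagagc
Capg: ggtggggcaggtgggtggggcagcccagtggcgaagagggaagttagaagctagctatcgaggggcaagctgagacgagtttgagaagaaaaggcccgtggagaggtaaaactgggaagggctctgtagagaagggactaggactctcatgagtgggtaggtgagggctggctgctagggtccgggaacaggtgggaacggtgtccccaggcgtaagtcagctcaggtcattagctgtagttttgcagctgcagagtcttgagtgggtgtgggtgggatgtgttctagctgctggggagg
A match is a description of the letters in the window and not a measured site. With counts scaled to library totals, the 4 genes with the motif did not share one pattern of level. In MNK-3 relative to ILC2, Actg1, Arpc4 and Myl6 were lower in both libraries and Vcl was higher in both. Vcl was not called by limma voom (log2 0.79 ± 0.49 SE). Its MNK-3 values fell on both sides of ILC2 under trimmed means of M values and median of ratios, library scalings used below.

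Reads assigned to the shared genes came to 25617762 and 15177345 in MNK-3, 9298162 in ILC2 and 4637812 in NK, and levels are given as CPM, counts scaled to these totals. Where MNK-3 has a pair of values, replicate 1 comes before replicate 2. MNK-3 replicate 1 stood apart. The counting assigned 75.8% of its reads to no feature, against 24.3% in MNK-3 replicate 2, 23.1% in ILC2 and 47.1% in NK. Where in the genome these reads lay is not given. Of the shared genes, 95.6% had a read in MNK-3 replicate 1, against 70.4%, 69.6% and 76.0% in the other libraries, in the same order. The summed marker lists fitted the labels, though the ILC2 marker Il17rb did not. Il17rb had 25.8 and 2.50 CPM in MNK-3, 3.98 CPM in ILC2 and 3.88 CPM in NK. The summed ILC3 markers stood at 1861 and 2725 CPM in MNK-3, 214 CPM in ILC2 and 94.0 CPM in NK, the summed ILC2 markers at 144 and 95.5 CPM in MNK-3, 5474 CPM in ILC2 and 132 CPM in NK, and the summed NK markers at 83.4 and 69.3 CPM in MNK-3, 18.7 CPM in ILC2 and 6981 CPM in NK. Among markers of other cells, the T cell list summed to 105 and 5.47 CPM in MNK-3, 12.2 CPM in ILC2 and 34.9 CPM in NK. The myeloid list summed to 34.2 and 2.83 CPM in MNK-3, 20.4 CPM in ILC2 and 248 CPM in NK, of which Itgam, an integrin chain that NK cells also carry, made up 233 CPM in NK. The fibroblast and smooth muscle list summed to 63.0 and 6.52 CPM in MNK-3, 13.0 CPM in ILC2 and 22.9 CPM in NK, and the platelet list to 27.4 and 4.41 CPM in MNK-3, 3.44 CPM in ILC2 and 20.5 CPM in NK. The endothelial list summed to 75.03 and 21.6 CPM in MNK-3, 211 CPM in ILC2 and 98.3 CPM in NK, most of it Pecam1, which stood at 208 CPM in ILC2. The B cell list summed to 33.7 and 1.58 CPM in MNK-3, 40.1 CPM in ILC2 and 5.17 CPM in NK, and the erythroid list to 7.14 and 1.32 CPM in MNK-3, 0.753 CPM in ILC2 and 3.45 CPM in NK. The part of such cells in the results was not tested. In bulk samples, fewer cells of a type and less RNA per cell cannot be told apart.

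Actin and migration genes together took the smallest share of gene reads in MNK-3, a larger one in ILC2 and the largest in NK. They held 1.70% and 2.33% of gene reads in MNK-3, 3.11% in ILC2 and 4.33% in NK. The median gene of the 47 stood at 198 and 251 CPM in MNK-3, 356 CPM in ILC2 and 497 CPM in NK. At 100 CPM or more stood 38 and 40 of the 47 genes in MNK-3, 42 in ILC2 and 43 in NK. Per kilobase of exon, Actb ranked first of the 47 in every library, at 714 and 1087 CPM per kb in MNK-3, 2315 in ILC2 and 2397 in NK. Myh9, the heavy chain of non-muscle myosin IIA, ranked next to it in both MNK-3 libraries, at 314 and 437 CPM per kb, against 232 in ILC2 and 435 in NK, whereas Tmsb4x took the next rank in ILC2 and NK, at 1668 and 1292 CPM per kb.

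**Figure D1:**
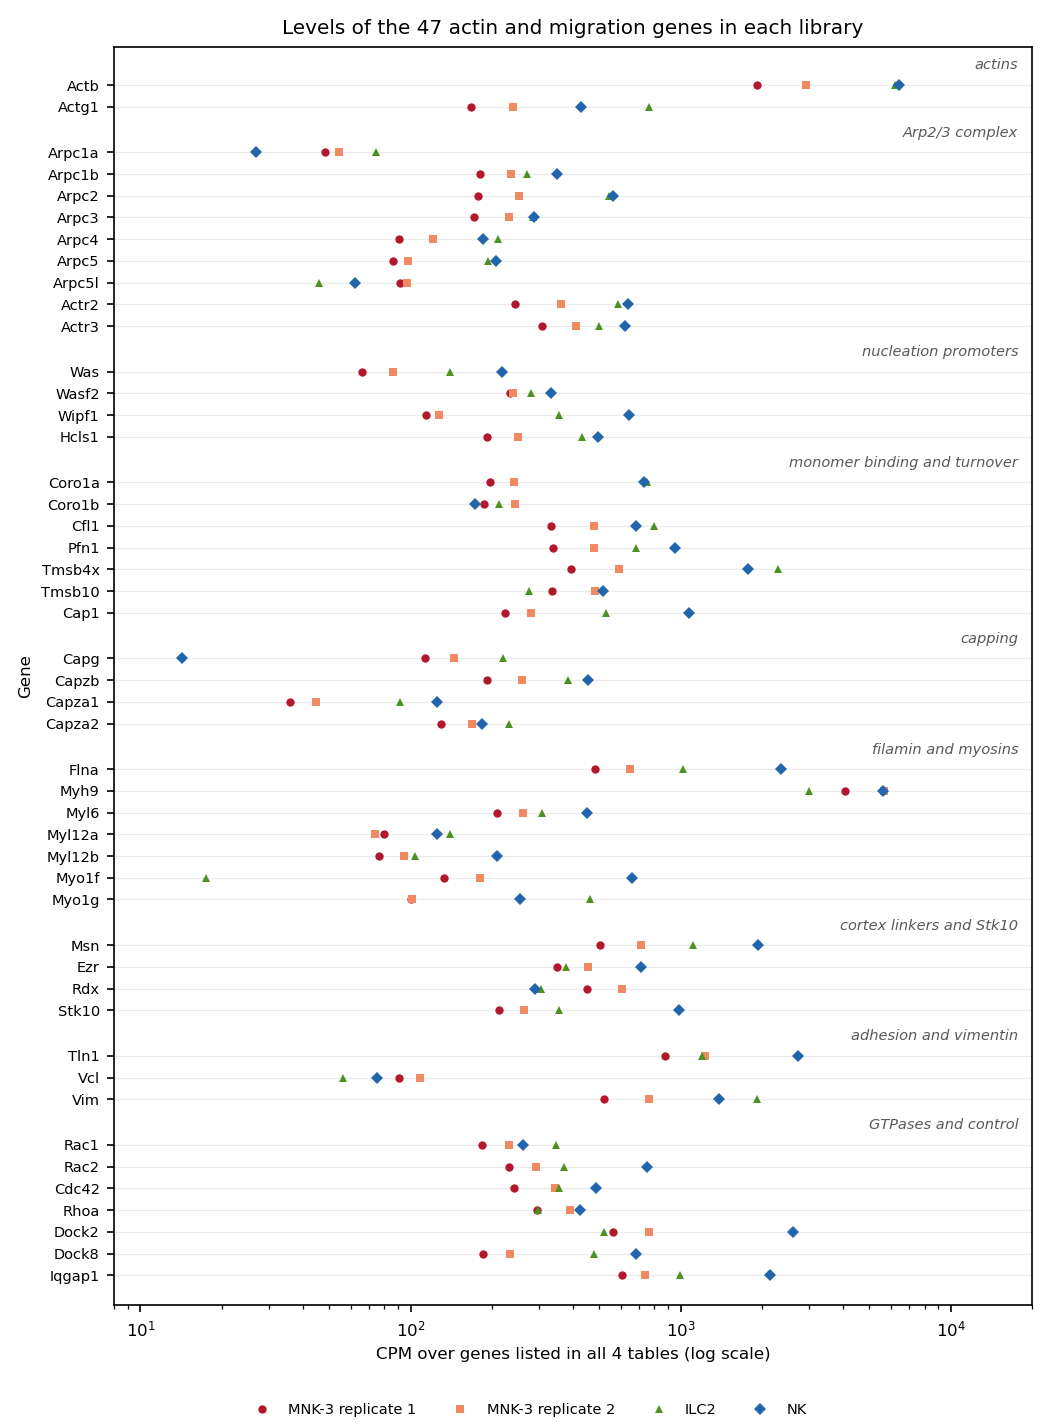
Levels of the 47 actin and migration genes by role, as CPM on a log scale, with 1 point for each of the 4 libraries. For 34 genes both MNK-3 points lie left of the ILC2 and NK points, an order whose share among all genes was not counted. The widest spreads belong to Myo1f, low in ILC2, and Capg, low in NK.

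MNK-3 was lowest for most of the genes, while the order of ILC2 and NK depended on the scaling. In 34 of 47 genes both MNK-3 libraries were below ILC2 and below NK, and in 24 genes the order from low to high was MNK-3, ILC2, NK. The first count was 33 and the second 16 with trimmed means of M values or median of ratios as the library scaling, under which 9 genes that lay below NK in ILC2 with library totals lay above it (Actb, Arpc2, Arpc3, Arpc5, Actr2, Actr3, Wasf2, Hcls1 and Capzb). Both MNK-3 libraries were above ILC2 and above NK for 3 genes, which were Arpc5l, Rdx and Vcl; with median of ratios as the scaling, none of these 3 stayed above either primary cell in both libraries, and with trimmed means of M values Rdx did so against NK alone and Arpc5l against both. The share of all genes with these joint orders was not counted, so these counts have no background beside them. MNK-3 replicate 1 was below replicate 2 for 46 of the 47 genes, Myl12a being the exception. The median log2 ratio of replicate 1 over replicate 2 was -0.39, against -0.27 for all genes averaging at least 100 CPM. Over all 25283 genes tested it was 1.57, so replicate 1 was the higher one there. The all-gene medians and shares given below for MNK-3 rest on both libraries and so carry this difference between them. The share of all genes lower in replicate 1 was not counted.

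In MNK-3 relative to NK, the actin and migration genes had a median log2 ratio of -1.08, which is 2.11-fold lower, with an interquartile range of -1.58 to -0.49. The same median was 0.88 over all 25283 genes tested and 0.01 over the 2597 genes averaging at least 100 CPM, an abundance nearer to that of the members. Both MNK-3 libraries were below NK for 40 of the 47 genes, where the background was 13.8% of all genes tested and 43.8% of the abundant genes, and both were above NK for 6 genes (background 34.9% and 43.6%). By limma voom, which fits all genes at once and calls a gene at a Benjamini-Hochberg adjusted p under 0.05, 26 of the 47 genes were called lower in MNK-3, against 2.04% of all genes and 15.1% of abundant genes, and 0 were called higher (1 at an unadjusted p under 0.05), against 0.289% and 2.81%. At 2-fold or more in both MNK-3 libraries, 21 genes were lower (background 4.31% of all genes, and 389 of the 2597 abundant genes) and 1 gene, Capg, was higher (13.0% and 12.4%). With MNK-3 replicate 1 alone in the group the 2-fold count was 32 lower, and with replicate 2 alone 3 genes were 2-fold higher. The calls depend on the scaling: with trimmed means of M values or median of ratios as the library scaling limma voom called 0 of the 47 genes (at an unadjusted p under 0.05, 1 higher and 1 lower with the first and 1 higher and 0 lower with the second), and with factors from abundant genes it called 16 lower. The MNK-3 factors were 1.40 and 0.848 with trimmed means of M values, 1.85 and 0.801 with median of ratios and 0.899 and 1.09 from abundant genes.

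In MNK-3 relative to ILC2 the difference was smaller. The median log2 ratio of the 47 genes was -0.73, or 1.66-fold lower, against 1.12 over all genes and 0.02 over abundant genes. Both MNK-3 libraries were below ILC2 for 36 genes (background 12.8% of all and 42.2% of abundant genes) and above it for 7 (43.7% and 42.9%). Limma voom called 18 genes lower (2.37% and 17.3%) and 1 gene, Myh9, higher (0.902% and 7.32%). At 2-fold in both libraries 10 genes were lower (3.85% and 13.7%) and 1 gene, Myo1f, was higher (12.0% and 9.09%), and with MNK-3 replicate 1 alone the lower count was 20. Of the 47 genes, 15 were called lower against both primary cells, but the comparisons share the MNK-3 libraries. The share of all genes called lower in both was not counted. Here too limma voom called 0 members under trimmed means of M values or median of ratios (at an unadjusted p under 0.05, 1 higher and 1 lower, and 1 higher and 0 lower), and 16 lower and 0 higher with abundant-gene factors.

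**Figure D2:**
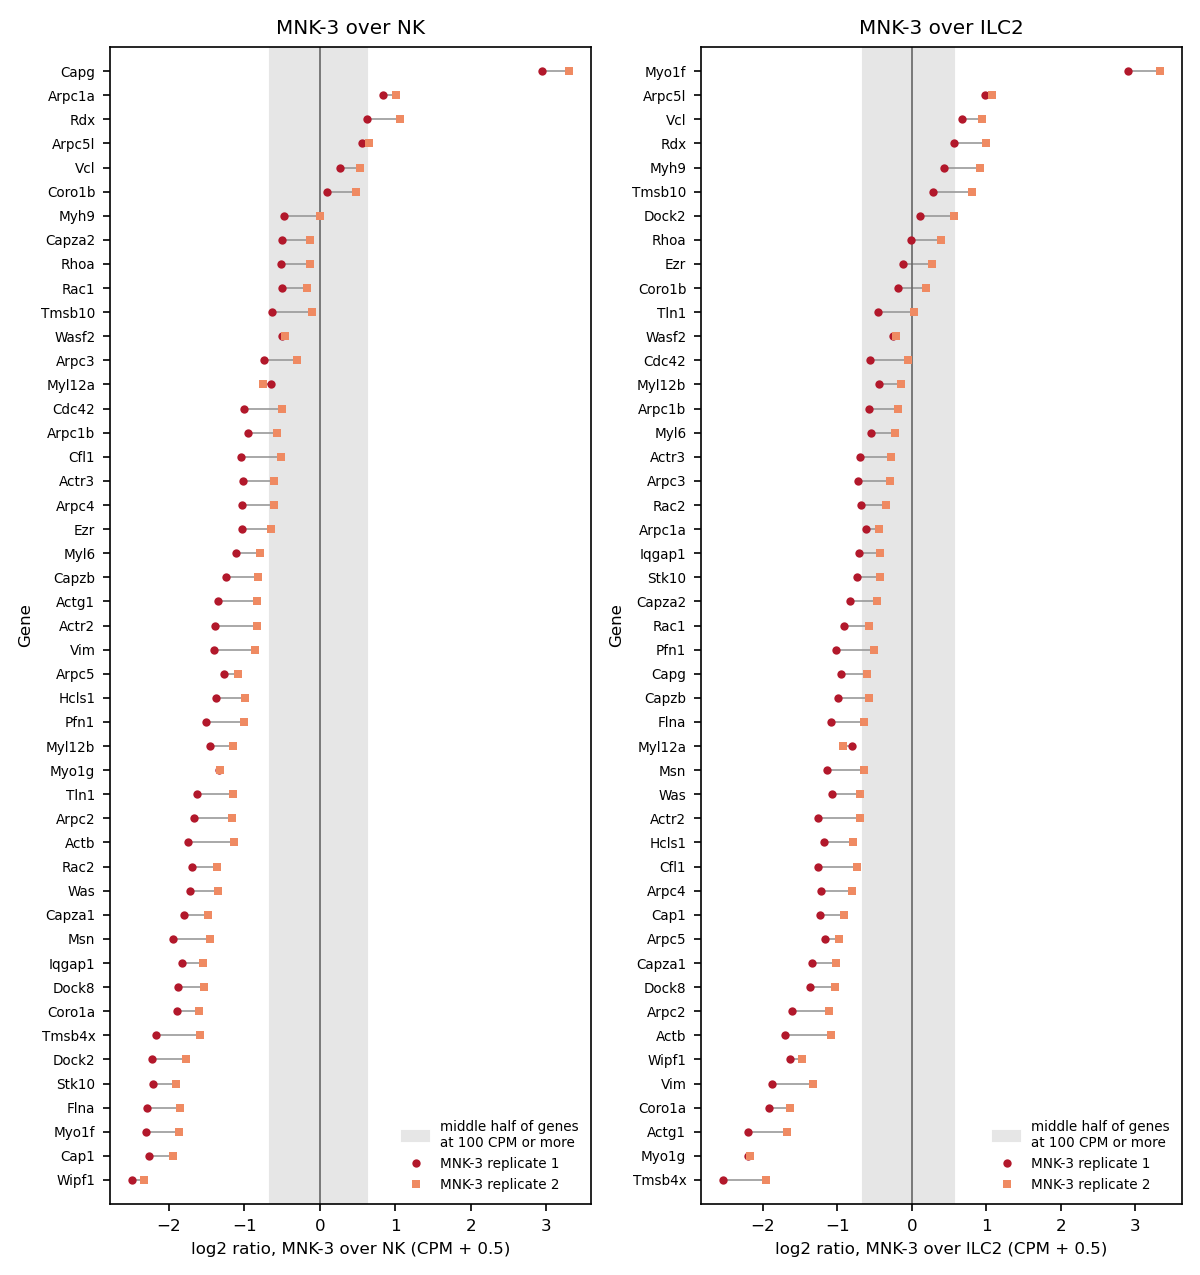
Log2 ratio of MNK-3 over NK (left) and over ILC2 (right) for each of the 47 genes, after adding 0.5 CPM, with 1 point per MNK-3 library and a grey band for the interquartile range of genes averaging at least 100 CPM. Most points lie left of 0, with Capg at the top of the left panel and Myo1f at the top of the right panel.

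Both cytoplasmic actins were lower in MNK-3. Actb, beta-actin, had 1913 and 2913 CPM in MNK-3, 6202 CPM in ILC2 and 6422 CPM in NK, and was called lower in MNK-3 than in ILC2 (log2 -1.41 ± 0.16 SE, adjusted p = 1.32e-15, limma voom) and than in NK (-1.46 ± 0.17, adjusted p = 3.99e-15). Actg1, gamma-actin, had 167 and 239 CPM in MNK-3, 766 CPM in ILC2 and 426 CPM in NK. The MNK-3 values of both genes lay below the ILC2 and NK values with no overlap, and Actg1 was higher in ILC2 than in NK where Actb was level between them. The proteins they encode are nearly identical. How far reads could be placed on either gene was not measured, so the split of reads between them is uncertain. These genes are often used to normalise between samples, and here Actb differed by 2.66-fold between MNK-3 and NK.

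Among the 9 Arp2/3 subunit genes, 8 were lower in both MNK-3 libraries than in ILC2, 4 of them called by limma voom, and 7 were lower than in NK, 2 of them called, where the background of calls among abundant genes was 17.3% and 15.1%. None of these calls held under trimmed means of M values or median of ratios. Arpc2, a core subunit, had 178 and 251 CPM in MNK-3, 542 CPM in ILC2 and 563 CPM in NK. Actr2, which encodes the actin-related protein Arp2, had 244 and 359.9 CPM in MNK-3, 586 CPM in ILC2 and 638 CPM in NK, and its partner Actr3 had 308 and 411 CPM in MNK-3, 500.3 CPM in ILC2 and 624 CPM in NK. Arpc2 and Actr2 were called in both comparisons, and Arpc4 and Arpc5 were called against ILC2 but not against NK, a difference between comparisons that was not tested. Arpc4 had 90.7 and 121 CPM in MNK-3, 212 CPM in ILC2 and 185 CPM in NK, Arpc5 had 85.9 and 97.6 CPM in MNK-3, 193 CPM in ILC2 and 207 CPM in NK, and Arpc3 had 172 and 232 CPM in MNK-3, 285 CPM in ILC2 and 286 CPM in NK. The paralogous subunits had patterns of their own. Arpc5l, the paralog of Arpc5, had 91.6 and 97.4 CPM in MNK-3, 46.0 CPM in ILC2 and 62.1 CPM in NK, above both primary cells but not called (adjusted p = 0.698 against ILC2, limma voom). Arpc1a had 48.4 and 54.6 CPM in MNK-3, 74.2 CPM in ILC2 and 26.7 CPM in NK, so it was lowest in NK while its paralog Arpc1b, at 180.3 and 236 CPM in MNK-3, 269 CPM in ILC2 and 349.5 CPM in NK, was highest there.

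All 4 genes that act on Arp2/3 were lower in both MNK-3 libraries than in either primary cell. All 4 were highest in NK with library totals, but Wasf2 and Hcls1 were higher in ILC2 than in NK under trimmed means of M values and median of ratios. Wipf1, which encodes WIP, the protein that binds and stabilises WASP, lies at chr2:73429610-73529734 (GRCm38) and had 114 and 128 CPM in MNK-3, 355 CPM in ILC2 and 644 CPM in NK. Among the members it was the furthest below NK, at 5.29-fold (log2 -2.43 ± 0.29 SE in limma voom, adjusted p = 4.58e-14), and was called against ILC2 as well (-1.57 ± 0.29, adjusted p = 5.4e-06). Was, the WASP gene itself, had 66.2 and 85.8 CPM in MNK-3, 139.8 CPM in ILC2 and 219 CPM in NK, and was called against NK but not against ILC2. Hcls1, a cortactin homologue of blood cells, had 192 and 249.5 CPM in MNK-3, 433 CPM in ILC2 and 497 CPM in NK and was called against both. Wasf2, which encodes the WAVE2 protein, had 233 and 239.9 CPM in MNK-3, 279 CPM in ILC2 and 331 CPM in NK, the smallest difference of the 4, and was called in neither.

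Genes for monomer binding and filament turnover gave some of the largest differences. Tmsb4x, thymosin beta-4, which holds actin monomers in reserve, lies at chrX:167207093-167209315 and had 393 and 589.6 CPM in MNK-3, 2287 CPM in ILC2 and 1771 CPM in NK. It was called lower in MNK-3 than in ILC2 (log2 -2.28 ± 0.19 SE, adjusted p = 4.3e-29, limma voom) and than in NK (-1.91 ± 0.22, adjusted p = 3.76e-16). Its paralog Tmsb10, with the same kind of activity, had 334 and 481 CPM in MNK-3, 274 CPM in ILC2 and 517 CPM in NK, and was called in neither comparison. The MNK-3 values of Tmsb10 lay above ILC2 and below NK, whereas those of Tmsb4x lay far below both. Cap1, cyclase-associated protein, which recharges monomers, had 224 and 279 CPM in MNK-3, 528 CPM in ILC2 and 1078 CPM in NK, 4.27-fold lower in MNK-3 than in NK. Pfn1, profilin, had 336 and 478 CPM in MNK-3, 681 CPM in ILC2 and 957 CPM in NK and was called in both comparisons, while Cfl1, cofilin, had 330.4 and 478 CPM in MNK-3, 795 CPM in ILC2 and 683 CPM in NK and was called against ILC2 but not against NK. The coronins split. Coro1a, the main coronin of leukocytes, had 198 and 241 CPM in MNK-3, 751 CPM in ILC2 and 730.1 CPM in NK and was called lower against both, and the widely expressed Coro1b had 187 and 243 CPM in MNK-3, 212 CPM in ILC2 and 174 CPM in NK, with no call.

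Capping genes held the member with the widest difference between MNK-3 and NK. Capg, which encodes a macrophage-type protein that caps filament ends without severing them, lies at chr6:72544391-72562983 and had 113 and 145 CPM in MNK-3, 219 CPM in ILC2 and 14.2 CPM in NK. MNK-3 was 8.77-fold and ILC2 14.9-fold above NK, where 66 reads were counted; the limma voom SE was 2.13 on a log2 difference of 3.13, and the adjusted p was 1. The subunits of the heterodimeric capping protein went the other way. Capza1 had 35.7 and 44.9 CPM in MNK-3, 91.4 CPM in ILC2 and 126 CPM in NK, and Capzb had 192 and 258 CPM in MNK-3, 383 CPM in ILC2 and 453 CPM in NK, both called lower against NK. Capza2, the other alpha subunit, had 130.1 and 168 CPM in MNK-3, 232 CPM in ILC2 and 185 CPM in NK, and was called in neither comparison.

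Filamin and the myosins held the member with the widest difference between the primary cells. Flna, filamin A, which crosslinks filaments, had 482 and 652 CPM in MNK-3, 1021 CPM in ILC2 and 2358 CPM in NK, and was called lower in MNK-3 than in NK (log2 -2.09 ± 0.20 SE, adjusted p = 1.29e-21, limma voom). Myo1f, a class I myosin of leukocytes at chr17:33555707-33607764, had 134 and 181 CPM in MNK-3, 17.5 CPM in ILC2 and 659 CPM in NK. The 3 cell types were thus far apart, with NK 4.18-fold above MNK-3 and MNK-3 8.76-fold above ILC2; limma voom called the difference from NK (adjusted p = 2.38e-11) and not that from ILC2 (adjusted p = 0.0977). Its relative Myo1g had the opposite order in the primary cells, at 100.2 and 101 CPM in MNK-3, 460.1 CPM in ILC2 and 254 CPM in NK, and was called lower in MNK-3 against both (adjusted p = 2.28e-12 against ILC2, limma voom). Myh9 had 4053 and 5654 CPM in MNK-3, 2999 CPM in ILC2 and 5620.3 CPM in NK. Of the 47 genes, only Myh9 was called higher in MNK-3 with library totals, against ILC2 (log2 0.66 ± 0.17, adjusted p = 0.00409, limma voom), a side that both MNK-3 libraries did not share under trimmed means of M values or median of ratios, and it made up 23.8% of the members' reads in MNK-3 replicate 1 and 13.0% in NK. The light chains that pair with it were lower in both MNK-3 libraries than in either primary cell: Myl6 had 208 and 260.2 CPM in MNK-3, 306 CPM in ILC2 and 448 CPM in NK, and Myl12b had 76.3 and 94.2 CPM in MNK-3, 104 CPM in ILC2 and 209 CPM in NK. Myl12a had 79.9 and 73.9 CPM in MNK-3, 140.03 CPM in ILC2 and 125 CPM in NK. Myl12a and Myl12b are near-identical copies, so their split is uncertain.

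The 3 ERM proteins, which tie the cortex to the membrane, did not move together. Msn, moesin, had 505 and 711 CPM in MNK-3, 1113 CPM in ILC2 and 1943 CPM in NK, and was called lower in MNK-3 against both. Ezr, ezrin, had 347 and 454 CPM in MNK-3, 377 CPM in ILC2 and 711 CPM in NK, and Rdx, radixin, had 449 and 606 CPM in MNK-3, 304 CPM in ILC2 and 289.6 CPM in NK. Radixin was thus above both primary cells in both MNK-3 libraries, without a call (adjusted p = 0.117 against ILC2 and 0.351 against NK, limma voom). Stk10, a kinase that phosphorylates ERM proteins, had 213 and 263 CPM in MNK-3, 355 CPM in ILC2 and 985 CPM in NK, 4.14-fold lower in MNK-3 than in NK. In the adhesion group, Tln1, talin, which switches integrins on, had 879 and 1227 CPM in MNK-3, 1204 CPM in ILC2 and 2711 CPM in NK, so that MNK-3 overlapped ILC2 and lay below NK. Vcl, vinculin, which binds talin, had 90.4 and 109 CPM in MNK-3, 56.2 CPM in ILC2 and 75.3 CPM in NK. Vim, the intermediate filament vimentin, had 523 and 762 CPM in MNK-3, 1915 CPM in ILC2 and 1384 CPM in NK, and was called lower in MNK-3 against both.

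Of the GTPases and their regulators among the members, the exchange factors differed in which cell type they set apart. Dock2, the exchange factor that activates Rac in lymphocytes, had 559.7 and 764 CPM in MNK-3, 518 CPM in ILC2 and 2599.5 CPM in NK, and was called lower in MNK-3 than in NK (log2 -2.01 ± 0.20 SE, adjusted p = 6.65e-21, limma voom). Dock8, which activates Cdc42, had 185 and 234 CPM in MNK-3, 478 CPM in ILC2 and 681 CPM in NK and was called in both comparisons. Dock2 was high in NK alone, while Dock8 was lowest in MNK-3. Rac2, the Rac of blood cells, had 231 and 291 CPM in MNK-3, 369.6 CPM in ILC2 and 748 CPM in NK, and the widely expressed Rac1 had 184 and 232 CPM in MNK-3, 346 CPM in ILC2 and 262 CPM in NK. Iqgap1, a scaffold for Rac1 and Cdc42, had 606 and 737 CPM in MNK-3, 994 CPM in ILC2 and 2150.4 CPM in NK. Cdc42, the GTPase that switches on WASP, had 242 and 344 CPM in MNK-3, 356 CPM in ILC2 and 486 CPM in NK, and Rhoa, which drives myosin contraction, had 295 and 388 CPM in MNK-3, 296 CPM in ILC2 and 422 CPM in NK. Neither was called. On the opposite strand, exons of Daglb overlap 51.4% of the Rac1 exons and exons of Ap3m1 overlap 25.5% of the Vcl exons. Smaller overlaps there include Pdap1 with 18.2% of the Arpc1b exons and Snx32 with 16.5% of the Cfl1 exons. On the same strand, exons of Ptprcap overlap 13.5% of the Coro1b exons and exons of Ttll3 overlap 12.2% of the Arpc4 exons. The strand setting of the counting is not given in the sources used here.

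ILC2 and NK had 1 library each, so their differences have no replicate check and are given by size only. The median log2 ratio of ILC2 over NK was -0.38 for the 47 genes, or 1.30-fold lower, against -0.26 over all genes and -0.01 over abundant genes. Lower in ILC2 were 33 genes (background 60.3% of all and 50.3% of abundant genes) and higher were 14 (31.6% and 49.5%). At 2-fold, 9 genes were lower in ILC2, a share near the background (19.8% and 16.7%), and 2 were higher, fewer than the background gives (10.8% and 19.3%). The lower ones were led by Myo1f, 36.6-fold lower in ILC2 than in NK, Dock2, 5.01-fold lower, and Stk10, 2.77-fold lower, followed by Flna (log2 -1.21), Tln1 (-1.17) and Iqgap1 (-1.11). The higher ones were Capg, 14.9-fold, and Arpc1a, 2.74-fold. Under trimmed means of M values 23 genes were higher in ILC2 and 24 lower, so the direction of the list as a whole in this comparison depends on the scaling.

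Read shares within families of related members need no library scaling, so they were compared next. The members form 13 such families, in 8 of which both MNK-3 shares lay over 10 percentage points from NK on the same side, in 6 from ILC2 and in 4 from each. Between ILC2 and NK, 7 families lay over 10 points apart. Families of other genes were not counted, so these counts have no background beside them. For Myo1f with Myo1g and Myl12a with Myl12b, replicate 1 passed this distance from NK and replicate 2 did not, at 15.05 and 8.11 points and at 13.7 and 6.52 points. The exact (Clopper-Pearson) 95% intervals on these shares spanned 0.463 to 5.14 points and cover counting error only. Tmsb10 made up 46.0% and 44.9% of thymosin reads in MNK-3, 10.7% in ILC2 and 22.6% in NK. Coro1b made up 48.6% and 50.2% of coronin reads in MNK-3, 22.0% in ILC2 and 19.2% in NK. The effect of the Ptprcap overlap on the Coro1b share was not tested. Arpc5l made up 51.6% and 49.97% of the reads of its pair in MNK-3, 19.3% in ILC2 and 23.1% in NK. In all 3 pairs the MNK-3 libraries lay close together and over 10 points from both primary cells. Radixin had 34.5% and 34.2% of ERM reads in MNK-3, 17.0% in ILC2 and 9.84% in NK, while moesin had 38.8% and 40.2% in MNK-3, 62.0% in ILC2 and 66.0% in NK. Other shares set NK or ILC2 apart. Rac1 had 44.4% and 44.3% of Rac reads in MNK-3, 48.3% in ILC2 and 25.9% in NK, and Arpc1a had 21.2% and 18.8% of its pair in MNK-3, 21.6% in ILC2 and 7.11% in NK. Dock2 had 75.2% and 76.5% of the reads of Dock2 and Dock8 in MNK-3, 52.0% in ILC2 and 79.2% in NK, and Myo1f had 57.2% and 64.1% of the reads of Myo1f and Myo1g in MNK-3, 3.67% in ILC2 and 72.2% in NK. The Actb share of actin reads hardly moved, at 92.0% and 92.4% in MNK-3, 89.0% in ILC2 and 93.8% in NK.

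**Figure D3:**
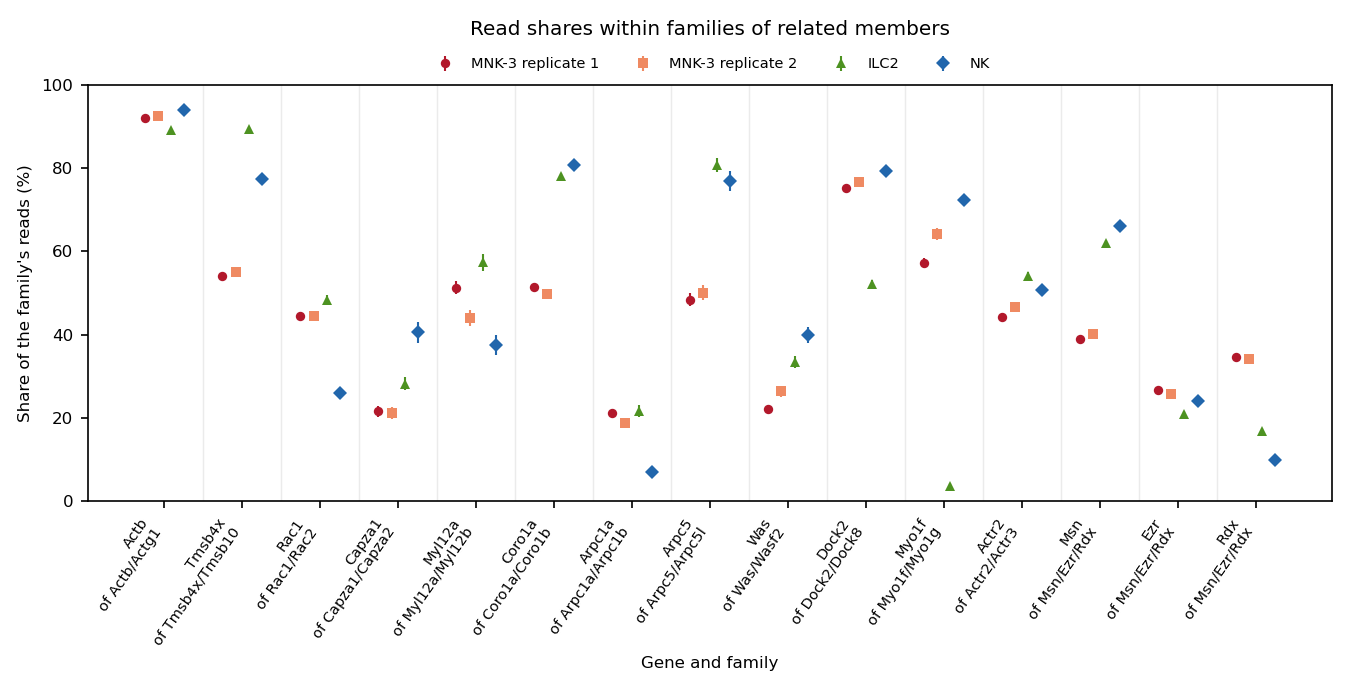
Share of a family's reads taken by the named gene, in percent, with 1 point per library and exact 95% binomial intervals as bars. The MNK-3 libraries lie together and away from ILC2 and NK for the thymosins, coronins, Arpc5 pair and radixin, and ILC2 alone is low for Myo1f.

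Because MNK-3 replicate 1 differed from replicate 2 in how many genes had reads, the side of each member was also counted under 4 library scalings, which were library totals, trimmed means of M values, median of ratios and abundant-gene factors. The number of members lower in both MNK-3 libraries was 40, 36, 36 and 41 against NK and 36, 37, 37 and 37 against ILC2, in that order. Against NK, Capza2, Rac1, Rhoa and Tmsb10 were the members that no longer lay below NK in both libraries under trimmed means of M values and under median of ratios. Members above NK in both libraries numbered 6, 4, 1 and 6, Capg being the one left under median of ratios, and above ILC2 7, 2, 1 and 9, Myo1f being the one left. In the 2 MNK-3 comparisons, no member changed from below in both libraries to above in both or the reverse. The median log2 ratio of the abundant genes depended on the scaling too: it was 0.01 with trimmed means of M values and -0.22 with median of ratios for MNK-3 over NK, -0.32 and -0.54 for MNK-3 over ILC2, and 0.33 and 0.34 for ILC2 over NK. A scaling factor shifts every gene of a library alike, so the distance of the members' median from it, -1.08, -0.75 and -0.37 with library totals, is close to fixed and is no check on the members.

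A further 125 genes of actin control and adhesion, from 7 lists of other pathway genes, showed a smaller shift. Of these, 34 were called lower and 2 higher in MNK-3 than in NK, and 18 lower and 5 higher in MNK-3 than in ILC2, by limma voom. The background of calls was 2.04% of all and 15.1% of abundant genes lower against NK, and 2.37% and 17.3% lower against ILC2, so the lower count against ILC2 was near that of abundant genes. For higher calls the background was 0.289% of all and 2.81% of abundant genes against NK, and 0.902% and 7.32% against ILC2. Their median log2 ratio was -0.37 for MNK-3 against NK, -0.09 for MNK-3 against ILC2 and -0.32 for ILC2 against NK. Plek, pleckstrin, a protein kinase C substrate of blood cells, had 3.36 and 0.791 CPM in MNK-3, 54.4 CPM in ILC2 and 953 CPM in NK, a difference called by limma voom against NK (adjusted p = 0.00448). The 5 platelet markers summed to 27.4 and 4.41 CPM in MNK-3, 3.44 CPM in ILC2 and 20.5 CPM in NK, where they ranged from 0.647 CPM (Pf4) to 9.92 CPM (Itga2b) with none at 0, and their part in the Plek result was not tested. Lsp1, a leukocyte actin-binding protein, had 16.9 and 6.06 CPM in MNK-3, 20.0 CPM in ILC2 and 598 CPM in NK, so Plek and Lsp1 were high in NK alone. Fyb, an adaptor that couples receptors to integrins, had 37.7 and 1.25 CPM in MNK-3, 536 CPM in ILC2 and 449.6 CPM in NK and was called lower in MNK-3 against both (adjusted p = 8.21e-08 against ILC2 and 9.62e-07 against NK, limma voom). Its MNK-3 values were far apart, as were those of Arhgap15, a GTPase-activating protein for Rac, at 15.4 and 0.395 CPM in MNK-3, 114 CPM in ILC2 and 214 CPM in NK. Ptk2, focal adhesion kinase, ran the other way, with 247 and 307 CPM in MNK-3, 29.0 CPM in ILC2 and 3.23 CPM in NK, and was called higher in MNK-3 than in ILC2 (log2 3.22 ± 0.71 SE, adjusted p = 0.00039, limma voom). Fmnl2, a formin, had 92.9 and 129 CPM in MNK-3, 6.56 CPM in ILC2 and 5.61 CPM in NK, and Parvb, an adhesion linker, had 71.4 and 52.2 CPM in MNK-3, 1.61 CPM in ILC2 and 3.02 CPM in NK. Gsn, gelsolin, which severs filaments, was high in ILC2 alone, with 40.7 and 40.1 CPM in MNK-3, 342 CPM in ILC2 and 11.9 CPM in NK. Enah, a relative of Evl, was highest in ILC2, with 39.6 and 3.29 CPM in MNK-3, 199.9 CPM in ILC2 and 6.90 CPM in NK, again with the MNK-3 libraries far apart. Evl, which promotes filament elongation, was low in ILC2 alone, with 143 and 174 CPM in MNK-3, 19.8 CPM in ILC2 and 408 CPM in NK.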

How the data were processed

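The deposited tables hold whole-number read counts per Ensembl gene, in another unit class than a readable count table by their layout, and were made by the authors with STAR 2.7.8a and HTSeq on mm10/GRCm38, per the submitters' processing notes. Per the labels' protocols, total RNA with integrity numbers above 9 was made into libraries with SMARTer Stranded Pico v2 chemistry and read as 38 bp pairs on a NextSeq 500. The strand setting and the gene set are not given in the sources used here. The protocols call for 2 technical replicates, and whether runs were pooled is not stated. MNK-3 was counted over 31053 genes, ILC2 and NK over 53465, and only the 30731 shared genes were used. Exons of Actg1 and Msn overlap those of genes counted only in ILC2 and NK. The effect of the differing gene sets on member counts was not tested. Entries naming no gene held 76.5% and 26.6% of reads in MNK-3, 25.9% in ILC2 and 49.3% in NK, and were left out. The entry for reads aligning to more than 1 place is 0 in every library. How such reads were handled is not given in the sources used here, so counts of near-identical copies are uncertain.

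CPM was computed from the shared-gene totals. Log2 ratios had 0.5 CPM added. A test made for whole-number counts was not run, because an automatic check of the layout did not accept the tables as counts. Limma voom was fitted to the counts instead (limma 3.58.1, R 4.3.3): all 4 libraries, 3 groups, 1 residual degree of freedom, two-sided, Benjamini-Hochberg adjustment over 25283 genes. The lone ILC2 and NK libraries are assumed to vary like the MNK-3 pair. The prior degrees of freedom of the fit were infinite. Each gene's SE and p-value therefore rest on a spread shared over genes and not on that gene's own MNK-3 pair. The filter asked for 10 reads, adjusted for library size, in at least 1 library and 15 reads in all. Coordinates are GENCODE M21 on GRCm38. Named first were the 8 members with the largest differences in each comparison, with at least 10 CPM and both MNK-3 libraries on the same side; the others stand with their role. Library totals were the main scaling, and the alternatives were other scalings, no filter, fewer libraries, 5 CPM added and each MNK-3 library left out. The members and lists were chosen with earlier results of these data known. A count over 1 group of genes is not reported here.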

Additional observations from a re-analysis of the deposited data

How the results depend on the processing

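No paired analysis was possible because ILC2 and NK have 1 library each, so the groups share fewer than 2 replicate numbers. In ILC2 against NK, 9 of the 47 members turned from lower to higher with trimmed means of M values and with median of ratios, and 1 (Arpc3) with abundant-gene factors; in the MNK-3 comparisons none turned in both libraries under these 3 scalings. The number of members limma voom called lower in MNK-3 than in NK was 26, against 0 with trimmed means of M values, 0 with median of ratios and 16 with abundant-gene factors. In MNK-3 against ILC2 it was 18 lower and 1 higher, against 0 and 0 with either of the first 2 scalings, and 0 higher with abundant-gene factors. The median log2 ratio of MNK-3 over ILC2 was -1.06 with trimmed means of M values and -1.26 with median of ratios, and that of ILC2 over NK -0.034 and -0.032. At 2-fold, ILC2 against NK gave 4 members higher and 3 lower with either. Leaving out 1 MNK-3 library gave 1 to 3 members 2-fold higher and 21 to 32 lower than in NK, and 1 to 2 higher and 10 to 20 lower than in ILC2. The members' share was 3.05% in ILC2 and 4.2% in NK over all genes of each table. Of the other 125 genes, 0 higher and 5 lower (trimmed means) and 0 higher and 9 lower (abundant genes) were called in MNK-3 against NK, and 0 and 2, then 2 and 10, against ILC2. The other values for single genes were each compared under several settings, and every pairing of a value with a setting was counted. Of these pairings 166 held, 111 lost their call and 14 moved. Those that held include genes that were never called, such as Capg, and settings that kept library totals. The cause was not tested. Tests without 1 MNK-3 library were not run, since no residual degrees of freedom remain. Capg in NK had the lowest count of any member in a library, at 66 reads.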
